A study of Mus musculus with 9 samples.

Results

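The untreated baseline of a mouse kidney cell line named MCP5, which the labels call podocytes, is described here from its 3 control libraries of the 9 RNA sequencing libraries in the study. Members were all libraries that the labels mark as blank control, and genes were ranked by their mean level in those 3 libraries alone. The other 6 libraries came from wild-type MCP5 cells given high glucose at 50 mmol/L (3 libraries) or advanced glycation end products (AGEs, proteins modified by reducing sugars) at 400 µg/mL (3 libraries). The controls were of the same line and also wild type, and received no agent. How long the cells were treated, how much glucose the control medium held, and whether osmotic or carrier controls were run is not given in the sources used here. All libraries came from 1 cell line, and the labels do not say whether the numbered libraries of a group were separate cultures, so each SD and p measures the spread between libraries, which may be technical. Levels are FPKM, read counts scaled to gene length and library size, and so can be compared between genes. A gene was called expressed when it reached 1 FPKM in each of the 3 control libraries, low when it missed that rule with a mean of at least 0.1 FPKM, lacking when its mean was under 0.1 FPKM, and undetected when it had 0 counts in all 3.

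Podocytes are the epithelial cells that wrap the glomerular capillaries with interdigitating foot processes. Between the processes lies the slit diaphragm, a junction built in part from nephrin (Nphs1) and Neph proteins (the Kirrel genes) and tied to actin through adaptors such as Cd2ap. The transcription factors Wt1, Lmx1b, Tcf21 and Foxc2 help to maintain this state in the kidney, and podocytes in culture are known to lose parts of it. The basement membrane under them is made chiefly of type IV collagen, laminin, nidogen and heparan sulphate proteoglycans.

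The labelled cell type was first checked against those markers. Wt1 (ENSMUSG00000016458, chromosome 2, 105126529 to 105173616), Lmx1b, Tcf21 and Foxc2 had 0 counts in all 3 control libraries. A count of 0 over the 3 libraries, of 66364072, 70705840 and 62193640 counts, allowed a level of up to 0.0151 CPM (counts scaled to library size; the floor of 3 counts, which covers counting error only). The data therefore go against the label for these 4 defining genes, and the cells are called the untreated MCP5 line from here on. In bulk RNA of this kind, fewer cells that express a gene and less of its RNA per cell cannot be told apart.

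Of 55385 annotated genes, 11116 (20.1%) were expressed, 5206 were low, 6222 were lacking and 32841 were undetected. Among 21804 protein-coding genes, 9732 (44.6%) were expressed and 7018 were undetected. The median level of an expressed protein-coding gene was 8.56 FPKM, and 391 protein-coding genes had a mean of at least 100 FPKM. The 100 genes with the most counts took 19.98% ± 0.286 of all counts (mean ± SD, n = 3, as throughout). Lists of 883 genes were then read against these shares, and 364 of them (41.2%) were expressed.

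Translation and protein-folding genes led the ranking. Calr, which encodes calreticulin, a calcium-binding chaperone of the endoplasmic reticulum (ER), was the second gene of all at 4288, 4209 and 4653 FPKM in control libraries 1, 2 and 3, and took 1.41% ± 0.075 of all counts by itself. The first rank was held by a mitochondrial gene. Eef1a1, the elongation factor that brings aminoacyl-tRNA to the ribosome, followed Calr at 4165 ± 63.1 FPKM. The other nuclear genes with an ordinary symbol near the top were mostly ribosomal (Rplp1 at 2284 ± 271 FPKM, Rplp0 at 2182 ± 203 FPKM), with the elongation factor Eef2 at 1722 ± 122 FPKM and the growth-related Tpt1 at 1612 ± 81.6 FPKM. Genes for 84 cytosolic ribosomal proteins took 6.88% ± 0.535 of counts and the mitochondrial genome 2.77% ± 0.14. Ribosomal genes have many near-identical pseudogenes, so their single levels are uncertain.

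The ER stress and integrated stress response list, 23 genes of the pathways by which cells answer unfolded protein and block translation, was expressed in full, with a median of 293 FPKM against 8.24 FPKM for all expressed genes. It took 4.53%, 4.55% and 4.33% of the counts of control libraries 1, 2 and 3. Its chaperones Hsp90b1 (1847, 1963 and 1553 FPKM) and Hspa5 (1422, 1407 and 1227 FPKM) stood at ranks 18 and 28 of all genes. Ddit3, the CHOP transcription factor induced when stress persists, was at 851, 843 and 839 FPKM. The disulphide isomerases Pdia4, Pdia3 and Pdia6 were at 747 ± 11.5, 733 ± 25.9 and 318 ± 7.17 FPKM. Atf4, the translationally controlled activator of the integrated stress response, had a mean of 476 ± 209 FPKM, and its targets Asns (asparagine synthetase) and Trib3 were at 189 ± 9.19 and 138 ± 10.8 FPKM. Xbp1, whose spliced form drives chaperone genes, was the lowest of the list at 13 ± 0.747 FPKM. Ddit3 overlaps Mars on the other strand, and whether counting used strand is not given in the sources used here.

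Promoters of the ER list were read from RefSeq (GRCm38.p6, 250 bases before to 50 after the start) to show regulatory letters found in some of these abundant genes. The ER stress response element, spelled CCAAT, then any 9 bases, then CCACG, and searched on both strands, was found in 6 of 21 matched promoters of the list (28.6%), namely Hspa5, Hsp90b1, Pdia6, Creld2, Calr and Canx, and in 27 of 16747 matched protein-coding promoters (0.161%). The core of the amino acid response element, spelled TGATG, any base, then AA, was found on either strand in 5 of 21 (23.8%), those of Atf3, Herpud1, Trib3, Chac1 and Asns, and in 592 of 16747 (3.53%). No promoter of the list held both, and the other 10, those of Ddit3, Atf4, Pdia3 and Pdia4 among them, held neither. A match is a description of letters, not a bound site. The ER stress response element is named for the response that the list covers, so its share in the list is not a test. The 250 bases before the start of 4 of these genes are shown 5′ to 3′ on the gene's strand, with the element in capitals. They are Calr (chr8:84846932-84847181, minus strand), Hspa5 (chr2:34771840-34772089, plus), Hsp90b1 (chr10:86705445-86705694, minus) and Creld2 (chr15:88819396-88819645, plus), the last a secreted ER stress gene at 529 ± 28.1 FPKM.
Calr: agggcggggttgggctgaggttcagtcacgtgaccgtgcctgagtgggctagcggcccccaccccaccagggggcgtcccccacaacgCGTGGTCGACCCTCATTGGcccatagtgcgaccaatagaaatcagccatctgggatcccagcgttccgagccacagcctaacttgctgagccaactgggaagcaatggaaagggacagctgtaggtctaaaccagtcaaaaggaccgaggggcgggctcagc
Hspa5: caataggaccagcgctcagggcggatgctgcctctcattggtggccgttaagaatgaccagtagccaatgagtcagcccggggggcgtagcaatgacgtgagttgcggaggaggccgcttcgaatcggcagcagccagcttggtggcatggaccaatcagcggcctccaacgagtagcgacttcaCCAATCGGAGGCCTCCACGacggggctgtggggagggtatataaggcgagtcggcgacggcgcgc
Hsp90b1: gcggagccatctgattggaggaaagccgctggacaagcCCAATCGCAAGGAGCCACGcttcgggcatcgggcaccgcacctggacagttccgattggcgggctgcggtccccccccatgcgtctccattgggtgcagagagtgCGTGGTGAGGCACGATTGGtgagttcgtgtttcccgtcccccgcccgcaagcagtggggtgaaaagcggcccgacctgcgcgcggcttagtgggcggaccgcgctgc
Creld2: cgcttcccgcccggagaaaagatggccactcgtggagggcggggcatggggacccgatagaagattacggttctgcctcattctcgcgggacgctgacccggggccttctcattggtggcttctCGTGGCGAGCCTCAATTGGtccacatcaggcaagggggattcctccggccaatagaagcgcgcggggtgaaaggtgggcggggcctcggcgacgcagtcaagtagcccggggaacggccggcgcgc
In Calr and Creld2 the element lay on the opposite strand, so that it reads as its reverse complement, and began 162 and 126 bases before the start. In Hspa5 it lay on the gene's strand 65 bases before the start. Hsp90b1 held 1 copy on each strand, at 212 and 107 bases.

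The podocyte lists were uneven by role. Of 67 genes, 40 (59.7%) were expressed, 11 low, 7 lacking and 9 undetected, against 44.6% expressed among all protein-coding genes. The cytoskeletal list was the fullest with 18 of 21 expressed, followed by 9 of 18 surface and secreted genes, 8 of 16 slit diaphragm genes and 5 of 12 transcription factors.

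**Figure D1:**
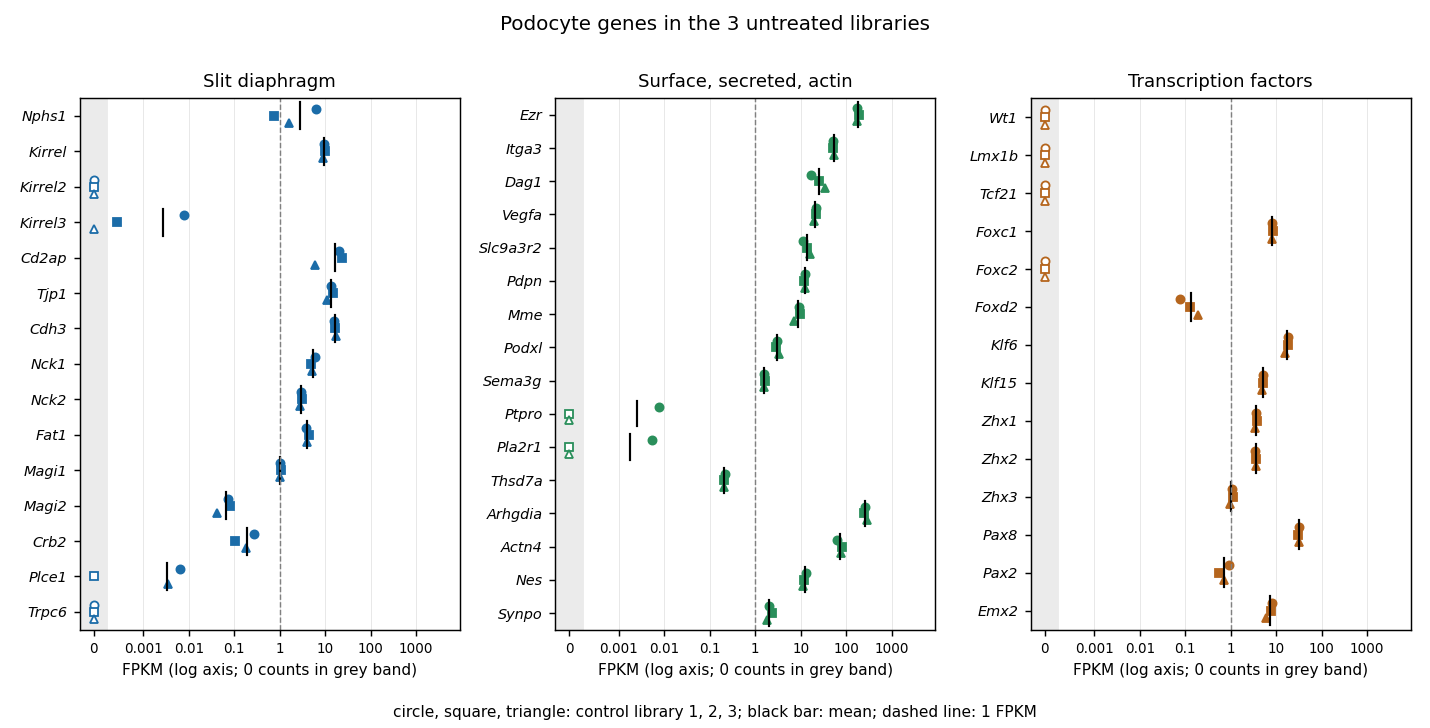
Levels of the podocyte genes in FPKM on a log axis, grouped by list, with circles, squares and triangles for control libraries 1, 2 and 3 and a black bar for their mean. The dashed line is 1 FPKM and the grey band holds libraries with 0 counts, where Wt1, Lmx1b, Tcf21 and Foxc2 sit, while most cytoskeletal genes lie above the line.

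Within the slit diaphragm list the junction was represented by its adhesion and adaptor members. P-cadherin (Cdh3) was at 15.9, 16.7 and 17.1 FPKM. Kirrel, which encodes Neph1, was at 9.27, 9.87 and 9.09 FPKM, with a narrow spread. Tjp1, the scaffold ZO-1, was at 13 ± 1.83 FPKM, and the adaptors Nck1 and Nck2, which couple phosphorylated nephrin to actin, were at 5.25 ± 0.499 and 2.92 ± 0.106 FPKM. Cd2ap, an adaptor that binds nephrin, was at 19.7, 22.9 and 5.98 FPKM, so library 3 was low. The giant protocadherin Fat1 was at 4.02 ± 0.356 FPKM.

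Nephrin itself did not repeat between libraries. Nphs1 (ENSMUSG00000006649, chromosome 7, 30458315 to 30487223, plus strand) had 3023, 390 and 727 counts, that is 6.17, 0.746 and 1.59 FPKM, with control 1 far above the other two. The ribosomal pseudogene Rps12-ps4 overlaps it on the other strand and had 2024, 819 and 886 counts in the same libraries, also highest in control 1. Its part in the Nphs1 counts was not tested. Nephrin's other partners were scarce: Magi2 was lacking at 0.0648 FPKM, Kirrel3 at 0.00271 FPKM and the phospholipase Plce1 at 0.00325 FPKM, and Kirrel2 and the calcium channel Trpc6 were undetected.

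Of the surface genes, Ezr (ezrin, the linker of membrane proteins to actin) was at 177, 188 and 177 FPKM, and its partner Podxl (podocalyxin, the charged sialomucin of foot processes) at 2.95, 2.86 and 3.29 FPKM. Itga3, the laminin-binding integrin chain of podocytes, was at 51.3, 51.8 and 55.3 FPKM. Dag1 (dystroglycan, a laminin receptor) was at 17.1, 25.6 and 34.3 FPKM, lowest in control 1 and highest in control 3. Vegfa, the growth factor that podocytes send to the endothelium, was at 20.9 ± 0.888 FPKM, podoplanin (Pdpn) at 12.2 ± 0.279 FPKM and neprilysin (Mme) at 8.72 ± 1.32 FPKM. The receptor phosphatase Ptpro (0.00252 FPKM), the phospholipase A2 receptor Pla2r1 (0.00176 FPKM), Dpp4 and Enpep were lacking, and the guidance receptor Robo2 was undetected.

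The actin list spanned a wide range. Arhgdia, an inhibitor of small GTPases, was highest at 264 ± 17.1 FPKM. Actn4 (alpha-actinin-4, the crosslinker of foot process actin) was at 62.6, 80.3 and 78.4 FPKM, Myh9 (non-muscle myosin) at 43.6 ± 2.03 FPKM and cortactin (Cttn) at 38.3 ± 1.09 FPKM. Synpo (synaptopodin, an actin-bundling podocyte protein) was near the bottom at 1.99, 2.29 and 1.82 FPKM, well apart from Actn4. Myo1e (a membrane-linked myosin) was at 3.79 ± 0.0584 FPKM and the formin Inf2 at 5.63 ± 0.376 FPKM. Only Arhgap24 (0.543 ± 0.077 FPKM) and Clic5 (0.22 ± 0.0352 FPKM) were low, and Kank4 was undetected.

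Transcription factors that act in podocytes but also in many other cells made up the 5 expressed. They were Klf6 at 17.5 ± 1.5 FPKM, Foxc1 at 8.27 ± 0.309 FPKM, Klf15 at 5.07 ± 0.138 FPKM, and the zinc-finger homeobox genes Zhx1 and Zhx2 at 3.59 ± 0.248 and 3.52 ± 0.104 FPKM. Foxc1 was thus present where its close relative Foxc2 was undetected.

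Transcription factors of the nephron gave a further reading of identity. Of 28, 13 were expressed, led by Pax8 (31.3, 30.3 and 32.4 FPKM), which helps to specify the nephric lineage. Emx2 (7.22 ± 1.01 FPKM) and Sall1 (4.18 ± 0.37 FPKM) act in kidney development, and Foxd1 (4.81 ± 0.132 FPKM) marks stromal progenitors. Pax2, the paired-box partner of Pax8, was low at 0.917, 0.547 and 0.716 FPKM. The proximal tubule regulator Hnf4a was low at 0.165 ± 0.0572 FPKM. The nephron progenitor factors Six2 and Cited1 were lacking, as was Pou3f3, and Foxi1, the factor of intercalated cells, was undetected.

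Hox genes, which are arranged in 4 clusters and give position along the body axis, were expressed in 21 of 39 cases. Cluster b carried most of the signal, with 110.6, 107.3 and 108.9 FPKM in sum for control libraries 1, 2 and 3, and Hoxb9 alone was at 63.3, 61.7 and 63.6 FPKM. Hoxb7 (13.9 ± 1.03 FPKM) and Hoxb6 (12.4 ± 0.54 FPKM) came next. By cluster, 7 of 11 genes in a, 8 of 10 in b, 4 of 9 in c and 2 of 9 in d were expressed. All 21 expressed genes belonged to paralogue groups 1 to 10, which hold 30 genes. None of the 9 genes of groups 11 to 13 was expressed, although Hoxc13 (1.09 ± 0.206 FPKM) and Hoxb13 (0.333 ± 0.0742 FPKM) were low. Neighbouring Hox genes overlap in the annotation, so their single levels are uncertain.

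Other transcription factor families were narrower. Sox4 (14.4 ± 0.998 FPKM) and Sox12 (5.59 ± 0.299 FPKM) were the 2 expressed of 20 Sox genes, Sox9 was just under the rule at 0.979, 1.14 and 1.13 FPKM, and 12 were undetected. Of 44 Fox genes 15 were expressed, led by Foxk2 (23.7 ± 0.443 FPKM) and the proliferation factor Foxm1 (11.8 ± 1.37 FPKM), with Foxf1 at 7.86 ± 0.331 FPKM. Kruppel-like factors were expressed in 11 of 17 cases, among them Klf5 (10.1 ± 0.0586 FPKM) and Klf4 (8.06 ± 0.598 FPKM). Tead2, a partner of the Hippo pathway coactivator YAP, was at 17.5 ± 1.88 FPKM. Its paralogue Tead1 was at 0.631, 9.59 and 0.517 FPKM, high only in control 2 and therefore low by the rule. Gata4 was expressed at 4.76 ± 0.531 FPKM, while Gata3 was low at 0.256 ± 0.0505 FPKM. AP-1 genes were expressed in 14 of 21 cases, with Jund at 182 ± 17.3 FPKM and the stress-induced Atf3 at 140, 133 and 140 FPKM.

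Epithelial adhesion and polarity genes were expressed in 18 of 29 cases. Epcam, an epithelial surface protein (ENSMUSG00000045394, chromosome 17), was at 31.3, 31.5 and 29.5 FPKM. Cdh16, the kidney-specific cadherin of tubules, was at 22.5, 22.1 and 22.9 FPKM, and F11r (the junctional molecule JAM-A) at 50.8 ± 1.3 FPKM. Plakoglobin (Jup), which links cadherins to the cytoskeleton, was at 19.5 ± 2.03 FPKM, and the tight-junction protein cingulin (Cgn) was at 15.5 ± 0.953 FPKM. Occludin (Ocln) was expressed at 1.89, 1.86 and 1.85 FPKM.

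E-cadherin was among the 11 genes of this list that were not expressed. Cdh1 (ENSMUSG00000000303, chromosome 8, 106603351 to 106670246) had 17, 23 and 16 counts, or 0.0532 ± 0.00822 FPKM, and was lacking. Its chromosomal neighbour Cdh3 lies a short distance upstream on the same strand (106510891 to 106557297) and was at 16.6 ± 0.615 FPKM. The line thus held P-cadherin, the kidney cadherin Cdh16, K-cadherin (Cdh6, 9.78 ± 0.698 FPKM) and N-cadherin (Cdh2, 5.56 ± 0.212 FPKM) without E-cadherin. Among claudins, the pore- and barrier-forming proteins of tight junctions, only Cldn1 was expressed (2.29 ± 0.425 FPKM). Cldn2, Cldn3, Cldn4 and Cldn7 were low, and Cldn6 and Cldn10 undetected.

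Regulators that maintain epithelia were mixed. Esrp1, which sets epithelial splicing, was at 8.25 ± 0.993 FPKM, Elf3 at 7.07 ± 0.357 FPKM and the matriptase gene St14 at 3.92 ± 0.194 FPKM. Spint2, a protease inhibitor, was at 27.9, 25.4 and 55.0 FPKM, high in control 3. Grhl2 (0.0595 FPKM) and Ovol2 were lacking, whereas their relatives Grhl1 (2.65 ± 0.272 FPKM) and Ovol1 (1.34 ± 0.0685 FPKM) were expressed.

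Keratins were narrow and unbalanced. Of 54 keratin genes 6 were expressed and 36 undetected, and the family took 0.0673% ± 0.00281 of counts. Krt18 was at 304, 286 and 319 FPKM, followed by Krt20 at 33.0 ± 1.45 FPKM, Krt7 at 7.51 ± 0.584 FPKM and Krt80 at 6.28 ± 0.273 FPKM. Krt8, the type II keratin that pairs with Krt18 in simple epithelia, was at only 1.66, 1.88 and 1.93 FPKM. Krt18 exceeded Krt8 by 183, 152 and 166 times in control libraries 1, 2 and 3. Both genes lie on chromosome 15 on opposite strands, with starts 23698 bases apart. Since the pair is divergent and unequal, the 250 bases before each start are shown (RefSeq, GRCm38.p6), with each CpG in capitals. Krt18 is at chr15:102027966-102028215, plus strand, and Krt8 at chr15:102004343-102004592, minus strand.
Krt18: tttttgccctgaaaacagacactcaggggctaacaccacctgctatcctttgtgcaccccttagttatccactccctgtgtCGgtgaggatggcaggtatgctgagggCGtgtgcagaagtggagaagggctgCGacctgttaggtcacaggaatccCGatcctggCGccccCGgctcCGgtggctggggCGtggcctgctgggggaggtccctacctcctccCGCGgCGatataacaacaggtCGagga
Krt8: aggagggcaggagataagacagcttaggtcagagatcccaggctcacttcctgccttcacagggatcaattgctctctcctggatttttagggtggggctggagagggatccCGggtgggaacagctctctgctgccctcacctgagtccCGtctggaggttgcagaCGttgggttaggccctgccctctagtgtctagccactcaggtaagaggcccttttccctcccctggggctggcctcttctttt
The Krt18 stretch held 12 CpG and the Krt8 stretch 3, an observed over expected ratio of 0.53 and 0.14.

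**Figure D2:**
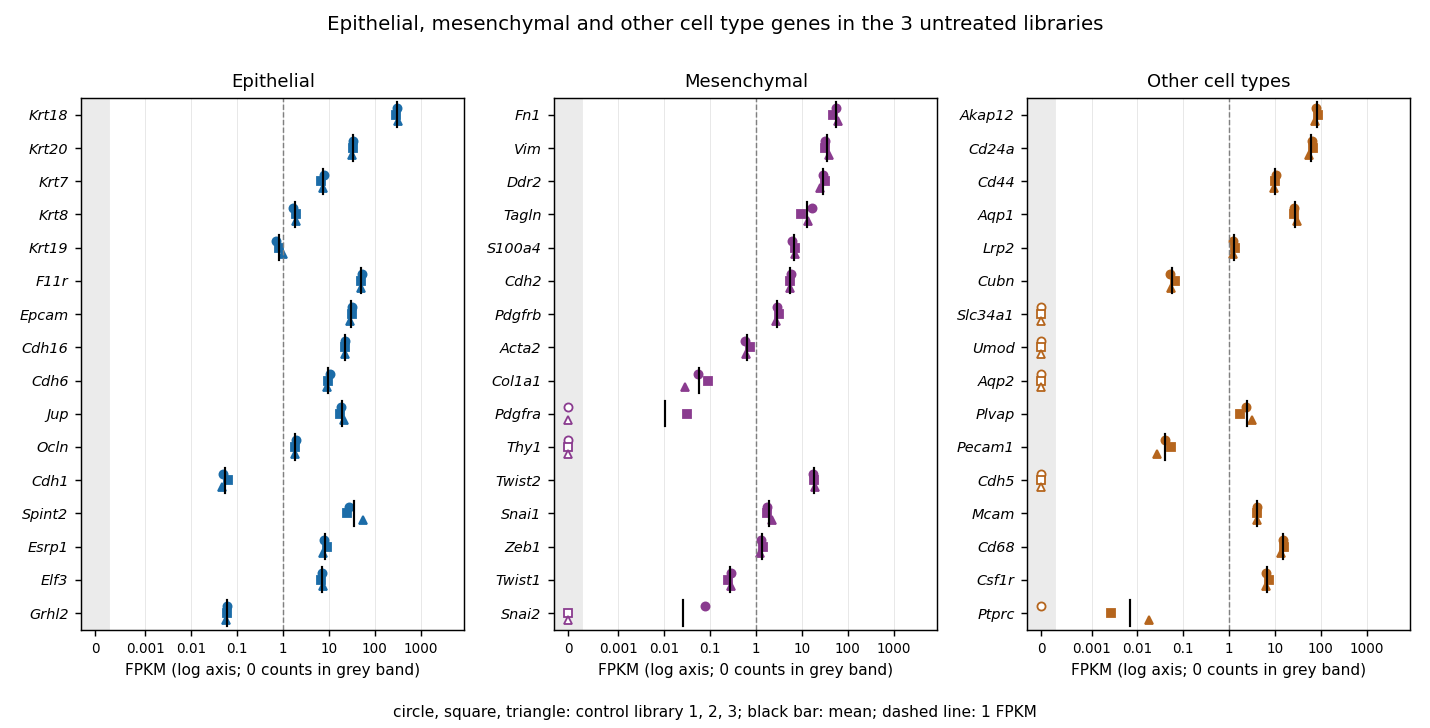
Levels of epithelial, mesenchymal and other identity genes in FPKM on a log axis, with circles, squares and triangles for control libraries 1, 2 and 3, a bar for the mean and a dashed line at 1 FPKM. Krt18, Epcam and Cdh16 sit far above Krt8 and Cdh1, and Fn1 and Vim far above Acta2, Col1a1 and Pdgfra.

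Mesenchymal genes were represented by a subset. Of 23, 8 were expressed, 4 low, 10 lacking and 1 undetected. Fibronectin (Fn1) was at 55.1, 47.9 and 60.8 FPKM and the intermediate filament vimentin (Vim) at 32.5, 32.5 and 39.9 FPKM. The collagen receptor Ddr2 was at 28.7 ± 3.3 FPKM and Pdgfrb, the receptor of mesangial cells and pericytes, at 2.94 ± 0.214 FPKM. Smooth muscle actin (Acta2) was low at 0.641 ± 0.092 FPKM. Fibroblast genes were lacking: Col1a1 was at 0.0575 ± 0.0296 FPKM, Pdgfra at 0.0103 ± 0.0179 FPKM, and Col1a2, Col3a1, decorin (Dcn), lumican (Lum) and periostin (Postn) were also under 0.1 FPKM. Thy1 was undetected. Tagln overlaps Pcsk7 on the other strand, so its 13.1 ± 3.47 FPKM is uncertain.

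Of 8 transcription factors known to repress epithelial genes, 3 were expressed. Twist2 was at 17.1, 18.1 and 19.3 FPKM, although it overlaps the antisense Gm29100. Snai1 was at 1.89 ± 0.261 FPKM and Zeb1 at 1.32 ± 0.0883 FPKM. Twist1 and Zeb2 were low at 0.267 ± 0.023 and 0.241 ± 0.0223 FPKM, and Snai2 was lacking at 0.0252 FPKM.

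Markers of other cell types of the kidney were counted in the same way. Parietal epithelial markers, of the cells that line Bowman's capsule, were expressed in 8 of 11 cases, with Akap12 at 80.6 ± 6.67 FPKM, the surface protein Cd24a at 61.8 ± 5.25 FPKM and the hyaluronan receptor Cd44 at 10.1 ± 0.596 FPKM. They summed to 196 to 220 FPKM per library, and none was undetected. Proximal tubule markers were expressed in 2 of 15 cases, the water channel Aqp1 (26.0, 26.3 and 29.6 FPKM) and the endocytic receptor Lrp2 (1.26 ± 0.0596 FPKM). Without Aqp1 that list summed to 2.09 to 3.12 FPKM, and its transporters Slc34a1, Slc5a2, Slc22a6 and Slc22a8 were undetected. None of 15 distal nephron and collecting duct markers was expressed, and Umod, Aqp2 and Slc12a3 were among 9 undetected. Many of the parietal genes, Pax8 and Cd44 among them, are also used in other epithelia.

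Endothelial and blood cell markers were near 0, with exceptions. Of 16 endothelial genes only Plvap was expressed (2.42 ± 0.736 FPKM), and it overlaps Gtpbp3 on the other strand. Cdh5, Kdr and Tek were among 8 undetected, and Pecam1 was lacking at 0.04 FPKM. Among 10 mesangial and pericyte markers Mcam (4 ± 0.0561 FPKM) and Pdgfrb were expressed, while Itga8 was lacking (0.00432 FPKM) and Ren1 and Agtr1a undetected. Of 15 leukocyte genes 3 were expressed, the lysosomal Cd68 at 14.8 ± 1.24 FPKM, the lipopolysaccharide co-receptor Cd14 at 7.45, 7 and 7.2 FPKM and the receptor Csf1r at 6.47, 7.54 and 6.35 FPKM. The pan-leukocyte Ptprc was lacking at 0.00676 FPKM, and Cd3e, Itgax and Tyrobp were undetected.

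Receptors, which set the ligands a cell can answer, were read family by family. Of 269 receptor genes and transporters, 102 (37.9%) were expressed. Among 58 receptor tyrosine kinases 20 were expressed, led by the Gas6 receptor Axl (39.9 ± 1.79 FPKM), Ddr2, the ephrin receptor Epha2 (27.3 ± 0.404 FPKM), the Wnt co-receptor Ryk (24.9 ± 0.813 FPKM) and the epidermal growth factor receptor Egfr (19.9 ± 0.958 FPKM). The insulin receptor Insr was at 0.866, 2.53 and 2 FPKM, with control 1 lowest, and the related Igf1r at 2.66 ± 0.223 FPKM. Kdr, the main receptor of Vegfa, was undetected, as were Erbb4 and Ret.

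Of 26 integrin chains 11 were expressed. Itgb1, the common beta chain, was at 163, 166 and 146 FPKM and Itgb5 at 30.2 ± 2.44 FPKM, and Itga3 exceeded the other alpha chains, of which Itga7 (9.32 ± 0.821 FPKM), the fibronectin receptor chain Itga5 (9.08 ± 0.875 FPKM) and Itga6 (4.95 ± 0.638 FPKM) came next. TGF-beta family receptors were expressed in 8 of 14 cases, with Bmpr1a at 21.5 ± 2.62 FPKM, Tgfbr2 at 17.6 ± 1.14 FPKM and Tgfbr1 at 2.28 ± 0.29 FPKM. Among Wnt and Notch receptors, expressed in 9 of 16 cases, Fzd6 (27.0 ± 2.02 FPKM) led Notch2 (5.37 ± 0.447 FPKM) and Notch1 (1.79 ± 0.103 FPKM).

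G protein-coupled receptors were expressed in 9 of 49 cases. The protease-activated receptors F2rl1 (51.1, 50.5 and 49.9 FPKM) and F2r (44 ± 2.15 FPKM) stood far above the next gene, the lysophosphatidic acid receptor Lpar2 at 5.85 ± 0.411 FPKM. The angiotensin receptors Agtr1a, Agtr1b and Agtr2, Mas1 and both endothelin receptors were undetected. Cytokine receptors were expressed in 18 of 27 cases, with the TWEAK receptor Tnfrsf12a at 81.6 ± 9.74 FPKM and Tnfrsf1a at 22.4 ± 0.54 FPKM. Nuclear receptors were expressed in 18 of 49 cases, among them the glucocorticoid receptor Nr3c1 at 3.94 ± 0.486 FPKM and the vitamin D receptor Vdr at 2.31 ± 0.467 FPKM. The mineralocorticoid receptor Nr3c2 was low (0.255 ± 0.0833 FPKM) and Pparg, Esr1 and Esr2 lacking.

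Receptors and transporters for the agents used in the study were read separately. The AGE receptor Ager (RAGE) was low, with 67, 34 and 16 counts or 0.394, 0.188 and 0.103 FPKM. The components of the other AGE receptor complex were abundant, with Lgals3 (galectin-3) at 467, 438 and 509 FPKM, Ddost at 170 ± 13 FPKM and Prkcsh at 43.2 ± 4.68 FPKM, although the latter 2 also serve glycoprotein processing in the ER. The scavenger receptors Cd36 and Olr1 were undetected and Scarb1 was at 7.02 ± 0.187 FPKM. Tlr4 was at 0.283, 2.62 and 2.33 FPKM, low in control 1. Of 14 glucose transporters 3 were expressed, Slc2a1 (GLUT1) at 118, 114 and 124 FPKM, Slc2a6 at 8.38 ± 0.927 FPKM and Slc2a8 at 4.61 ± 0.212 FPKM. The insulin-regulated Slc2a4 was just under the rule at 0.809, 0.804 and 1.28 FPKM, and the sodium-coupled Slc5a2 was undetected.

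Matrix genes were expressed in 50 of 137 cases (36.5%). Of 44 collagen chains 6 were expressed and 17 undetected. Col18a1, the basement membrane collagen from which endostatin is cut, was at 42.8, 44.6 and 49.5 FPKM, far above the next chain. Type IV collagen is made as trimers, of which the alpha1/alpha2 form is the general one and the alpha3/alpha4/alpha5 form is that of the mature glomerular membrane. Col4a5 was at 6.72, 6.80 and 5.87 FPKM, Col4a4 at 3.13, 2.95 and 2.94 FPKM and Col4a6 at 1.61, 1.9 and 1.87 FPKM. Col4a3, the third chain of the glomerular form, was low at 0.571 ± 0.0266 FPKM, and so were Col4a1 (0.453, 0.721 and 0.699 FPKM) and Col4a2 (0.664, 0.572 and 0.625 FPKM). In each library Col4a5 exceeded Col4a1, Col4a2 and Col4a3. Col4a1 and Col4a2 overlap on opposite strands.

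**Figure D3:**
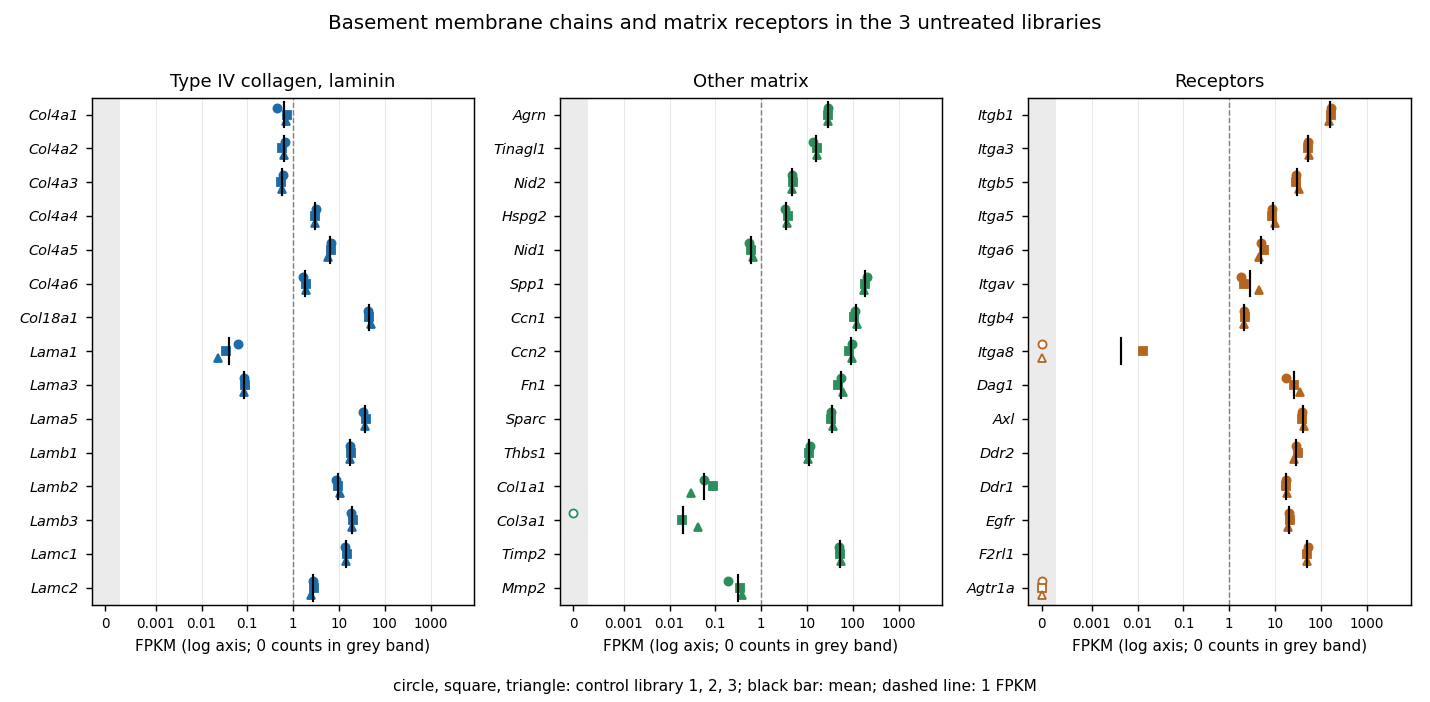
Levels of basement membrane genes, other matrix genes and matrix or signal receptors in FPKM on a log axis, with circles, squares and triangles for control libraries 1, 2 and 3, a bar for the mean and a dashed line at 1 FPKM. Col18a1, Lama5 and Agrn stand high, at means of 45.6, 36.3 and 28.9 FPKM, while Col4a1, Col4a2, Col4a3 and Nid1 sit under 1 FPKM in each library.

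Laminin chains, which form heterotrimers of an alpha, a beta and a gamma chain, were expressed in 6 of 11 cases. Lama5 was the 1 alpha chain expressed, at 33.2, 38.7 and 37.0 FPKM, and Lama1, Lama2, Lama3 and Lama4 were lacking. The beta chains Lamb3 (19.1 ± 1.03 FPKM), Lamb1 (17.8 ± 0.539 FPKM) and Lamb2 (9.62 ± 0.927 FPKM) and the gamma chain Lamc1 (14 ± 0.64 FPKM) were all present. Lamb2 lay below Lamb1 in each library, although Lamb2 is the beta chain of the mature glomerular laminin. Agrin (Agrn), a heparan sulphate proteoglycan, was at 28.1, 29.4 and 29.2 FPKM, perlecan (Hspg2) at 3.56 ± 0.267 FPKM, and nidogen-1 (Nid1) low at 0.536, 0.587 and 0.661 FPKM. Nid2 was at 4.79 ± 0.0999 FPKM, but overlaps Rtraf on the other strand.

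Among matrix glycoproteins osteopontin (Spp1, 204, 180 and 177 FPKM), Ccn1 (115 ± 9.77 FPKM) and Ccn2 (91.7 ± 6.53 FPKM) led, both of the latter being secreted targets of YAP and TGF-beta signalling, and Sparc was at 34.6 ± 2.58 FPKM. Of 32 matrix enzymes and inhibitors 21 were expressed, with the collagen chaperone Serpinh1 at 89.2 ± 7.38 FPKM, the prolyl hydroxylase P4ha1 at 77.7 ± 0.906 FPKM, Timp2 at 52.7 ± 2.4 FPKM and urokinase (Plau) at 43.0 ± 3.37 FPKM. The gelatinase Mmp2 was low at 0.305 ± 0.0986 FPKM and Mmp9 lacking.

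Cell cycle genes were expressed in 15 of 18 cases. Pcna was at 143, 143 and 140 FPKM, Mcm2 at 62.6 ± 2.52 FPKM, Top2a at 40.8 ± 6.73 FPKM and the proliferation marker Mki67 at 12.5 ± 2.72 FPKM. The cell cycle inhibitor gene Cdkn2a was at 122, 120 and 148 FPKM, Trp53 at 96.7 ± 8.43 FPKM and its target Cdkn1a at 31.2 ± 2.8 FPKM. Cdkn1c (p57, an inhibitor of quiescent podocytes) was undetected. The Y-linked genes Eif2s3y (9.37 ± 0.857 FPKM) and Ddx3y (5.01 ± 1.02 FPKM) were expressed and Xist lacking (0.0561 FPKM).

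**Figure D4:**
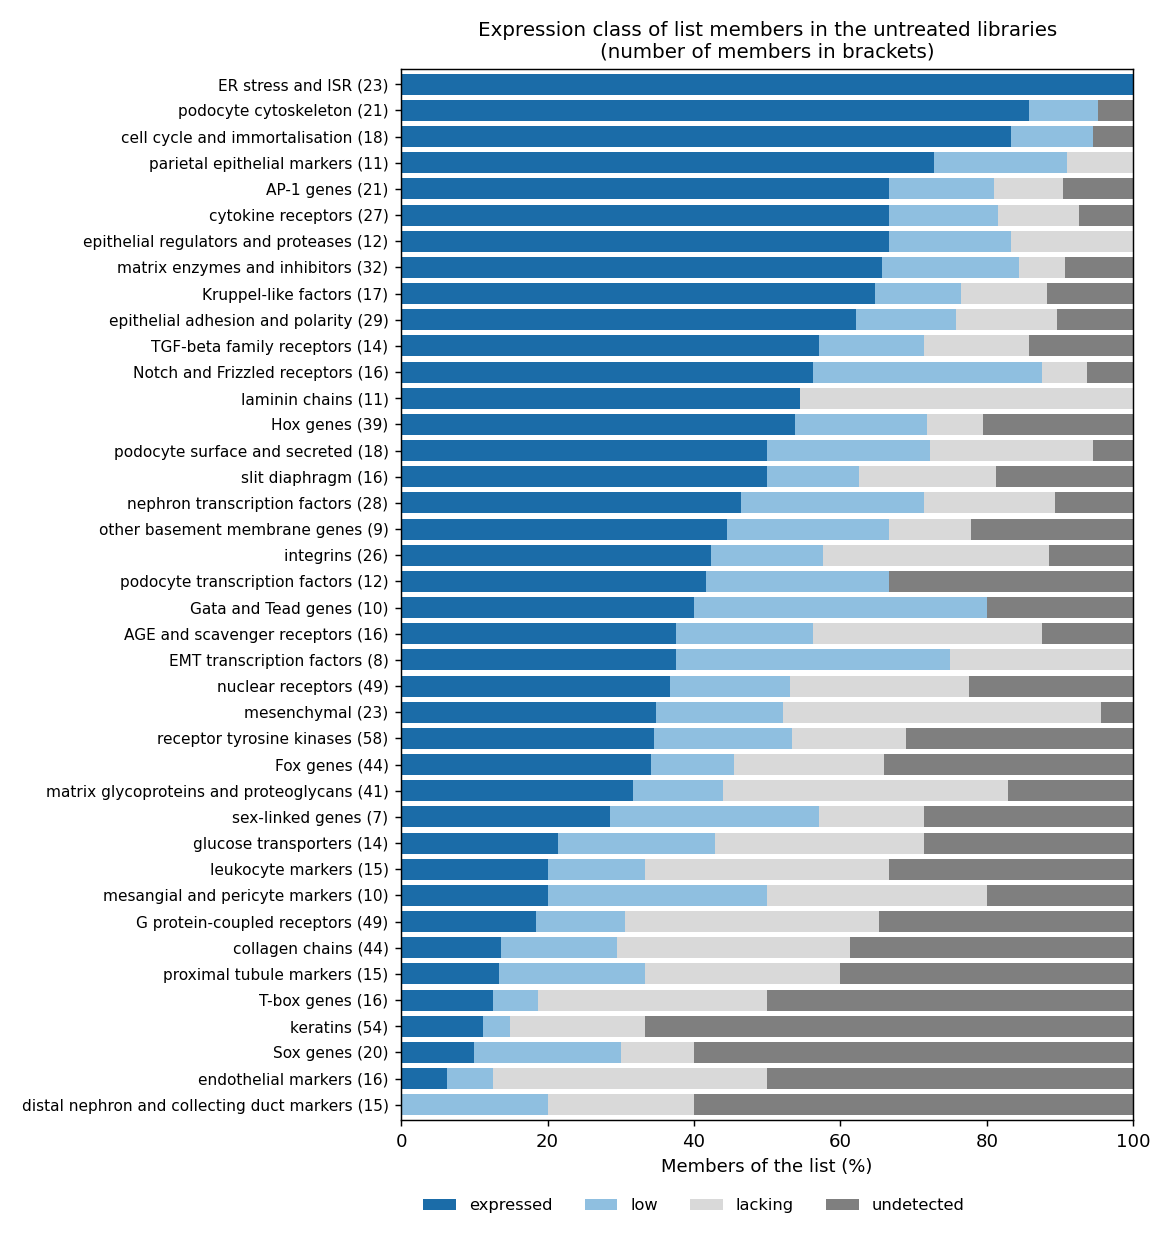
Share of each gene list that was expressed, low, lacking or undetected in the 3 control libraries, as stacked bars from 0 to 100% with the number of genes per list. The ER stress list is expressed throughout, the cytoskeletal list in 18 of 21 genes, and keratins and distal nephron markers are mostly undetected.

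Promoter composition differed along the same ranking. In the RefSeq windows of 16747 protein-coding genes the median observed over expected CpG ratio was 0.20 for undetected genes, 0.35 for lacking genes and 0.57 for low genes. With the expressed genes split by level into 4 equal groups, it was 0.82, 0.82, 0.79 and 0.76 from the highest group to the lowest. A ratio of at least 0.6 was found in 13.2% of undetected promoters and in 83.4% of those in the highest group. For podocyte genes the median was 0.77 over 34 expressed and 0.48 over 12 lacking or undetected. Of 67 podocyte genes 54 had a matched promoter, and Wt1 and Foxc2 were among those without one. These are descriptions across genes, which are not independent.

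The 3 control libraries differed little for most genes. The median coefficient of variation was 8.70% over expressed genes and 7.47% over the 364 listed expressed genes, and Pearson's r of log2 FPKM over the 11116 expressed genes was 0.981 to 0.986 between pairs of libraries. Between pairs of libraries the chi-square of the counts was 47.7 to 78.3 per degree of freedom. Sampling alone would give 1 if each fragment added 1 count, which is uncertain here. The value therefore cannot tell whether the libraries came from separate cultures. Of 11637 genes with a mean of at least 1 FPKM, 619 (5.32%) had a highest library over 2 times the lowest. The share was 3.14% for protein-coding genes and 16.5% for pseudogenes. The library farthest from the other two was control 1 in 206, control 2 in 186 and control 3 in 227 of these genes. Beside Nphs1, Tead1 (638, 10261 and 491 counts), Tlr4 and Cd2ap, the gene Gapdh, widely used as a reference, was at 81.6, 56.1 and 27.9 FPKM, and its many pseudogenes make it uncertain. Other reference genes were steadier, as with Actb at 202 ± 14.9 FPKM. Epo had 357, 0 and 358 counts and overlaps Gnb2 and other genes, and Zbtb12 had 9, 1508 and 1294 counts.

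The baseline was then compared with the treated libraries to show where it differed. Counts of all 9 libraries were fitted with edgeR's quasi-likelihood test and Benjamini-Hochberg adjustment, with a gene called where the adjusted p fell under 0.05. Both comparisons share the 3 control libraries, so they are given side by side and not combined. Against high glucose, 39.3% of the 17680 genes tested were called, 19.6% as higher and 19.7% as lower than baseline, with a median log2 fold change of 0.03. On the deposited FPKM (limma on log2(FPKM + 1)) the calls were split otherwise, with 68.6% of them higher against 49.9% in the count test. Against AGEs, 0.0848% were called, 0.0509% as higher and 0.0339% as lower (9 and 6 genes), with 2190 genes at an unadjusted p under 0.05 and 325 called by DESeq2.

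Of 883 listed genes 590 passed the filter on low counts, and of these 246 were higher and 97 lower in high glucose, with a median log2 fold change of 0.48. That is 58.1% called, beside 39.3% over all genes tested, where 19.6% were higher and 19.7% lower. The classes were set from the same control libraries, so counts by class are a description. The lists were chosen with earlier results of these data known, so counts by list are a description too. By baseline class, of 364 listed genes expressed at baseline 165 were higher and 89 lower (69.8% called, median 0.30). Of 134 low genes 62 were higher and 7 lower (51.5% called, median 0.93). All 23 genes of the ER stress list, the most abundant at baseline, were lower in high glucose (median -2.15). Epithelial genes were higher in 23 and lower in 2 of 46 tested (54.3% called, median 0.64). Hox genes were higher in 18 and lower in 1 of 29 (65.5% called, median 1.01), and integrins in 12 and 1 of 21 (61.9%, median 1.2). Podocyte genes were higher in 25 and lower in 4 of 54 (53.7% called, median 0.45). Mesenchymal genes were higher in 4 and lower in 7 of 26, although their median was 0.21. Their called share of 42.3% was near the 39.3% over all genes tested. The mesenchymal split turned to 7 higher and 3 lower with limma on FPKM, while the other lists named here kept their direction with DESeq2 and limma.

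**Figure D5:**
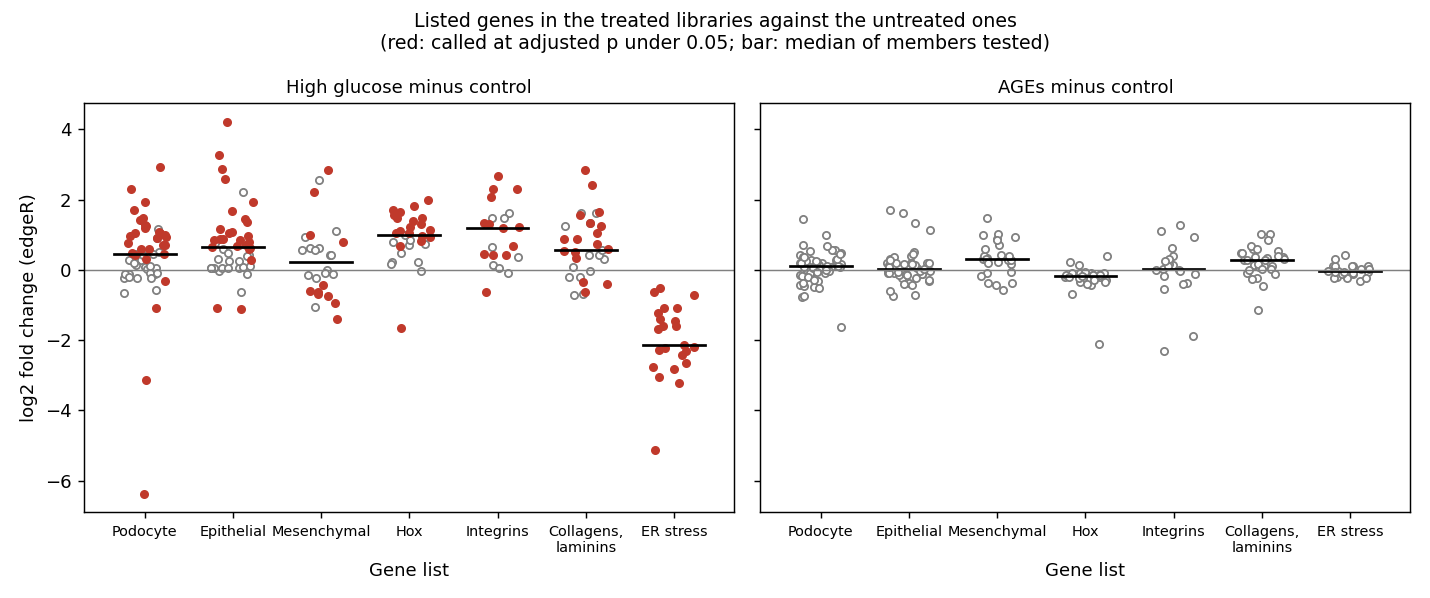
Log2 fold change of list members in high glucose (left) and AGEs (right) against control by list, with red points for genes called by edgeR at an adjusted p under 0.05, open circles for the others and a bar for the median of tested members. The ER stress list lies wholly below 0 in high glucose and near 0 in AGEs. The lists were chosen with earlier results of these data known.

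Named genes followed these counts. Elf3 was at 32.9, 30.3 and 28.9 FPKM in high glucose against 7.17, 6.68 and 7.37 FPKM at baseline, with no overlap (log2 fold change 1.94, SE 0.19, edgeR adjusted p = 5.83e-05). Krt8 rose (1.46, SE 0.31, adjusted p = 0.00482), whereas Krt18, its partner, stood at -0.02 on the log2 scale (SE 0.09, adjusted p = 0.855), and the difference between the 2 was not tested. Cdh1 stood at 0.76 (SE 0.84, adjusted p = 0.523), at 0.104 ± 0.0448 FPKM in high glucose.

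Among transcription factors, Hoxb6 rose (1.64, SE 0.18, edgeR adjusted p = 0.000124), while Hoxb9 was at 82.7 ± 1.42 FPKM (0.22, SE 0.08, adjusted p = 0.0619). Klf15 fell from 5.07 ± 0.138 to 0.644 ± 0.263 FPKM (-3.13, SE 0.27, adjusted p = 2.83e-05). In the basement membrane Col4a1 (1.24, SE 0.22, adjusted p = 0.00192), Col4a2 (1.33, SE 0.22, adjusted p = 0.00101) and Col4a3 (1.66, SE 0.35, adjusted p = 0.00483) rose, Lama5 fell (-0.64, SE 0.11, adjusted p = 0.00125), and Col4a5 had 0.09 (SE 0.12, adjusted p = 0.577). Nephrin did not pass either test (edgeR adjusted p = 0.699 in high glucose and 0.646 in AGEs), with a standard error of 1.14 and 1.15.

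Crossing of the 1 FPKM rule gave the same comparison without a test. It rests on the deposited FPKM, on which 68.6% of calls in high glucose were higher, against 49.9% in the count test. Over all genes 11116 were expressed at baseline. In high glucose 11604 were expressed, 10759 of them also at baseline, and in AGEs 11029, 10772 of them also at baseline. In high glucose 405 listed genes were expressed, 44 of them not so at baseline, among them Pax2, Col4a1, Col4a2, Nid1, Cldn4, Bmp7, Sox9 and Nr3c2. Avil, Klf15 and Zeb1 were the 3 listed genes expressed at baseline and not in high glucose. In AGEs 358 listed genes were expressed, 11 of the baseline set missing the rule, Synpo, Sox12 and Irx1 among them, and 5 (Tlr4, Kdm5d, Klf7, Cldn4 and Nid1) were expressed in AGEs and not at baseline. No listed gene that was undetected at baseline became expressed in either treatment. Of 4 such genes that passed the filter on low counts, 2 were called higher in high glucose. They passed it only through treated libraries, so this is a description. Of 12 podocyte transcription factors 2 were undetected in high glucose and 4 in AGEs, against 4 at baseline. Wt1 had 11 counts in 1 high glucose library.

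The summed levels of markers of other cell types were higher in high glucose. These sums also rest on the deposited FPKM, on which 68.6% of calls in high glucose were higher, against 49.9% in the count test. How much of each rise comes from that scale was not tested. In high glucose against control, parietal markers summed to 568 to 615 against 196 to 220 FPKM, proximal tubule markers to 124 to 156 against 29.1 to 31.7 FPKM and leukocyte markers to 51.2 to 59.3 against 28.8 to 31.1 FPKM. The endothelial list summed to 5.46 to 7.67 against 2.92 to 4.32 FPKM, the mesangial list to 12.8 to 14.5 against 7.63 to 8.44 FPKM and the distal list to 1.76 to 2.59 against 1.08 to 1.32 FPKM. Of their tested members, 3 were higher and 1 lower of 11 parietal, 2 and 1 of 10 leukocyte, 4 and 0 of 8 proximal tubule, 2 and 0 of 5 endothelial, 2 and 0 of 6 mesangial and 2 and 0 of 5 distal genes, beside 19.6% higher and 19.7% lower over all genes tested. Cd68 was the leukocyte gene that was lower (-1.20, edgeR adjusted p = 0.00419). Cd24a, Aqp1 and Cd14 were the members of their lists that differed most in FPKM between control and high glucose. Without Cd24a the parietal sum was 186 to 202 against 140 to 153 FPKM. Without Cd14 the leukocyte sum was 21.4 to 28.1 against 21.3 to 24.1 FPKM, which overlapped. Without Cd68, the highest leukocyte gene at baseline, it was 44.5 to 50.8 against 14.1 to 15.4 FPKM, so the choice of gene mattered. For the mesangial, endothelial and distal lists the highest member at baseline was left out instead, which need not be the one that differed most. Without Mcam the mesangial sum was 3.75 to 4.80 against 3.65 to 4.37 FPKM, also overlapping. The endothelial sum without Plvap (2.77 to 3.44 against 1.01 to 1.21 FPKM) did not overlap. Nor did the distal sum without Scnn1a (1.28 to 1.86 against 0.476 to 0.797 FPKM). The proximal sum without Aqp1 was 5.03 to 8.05 against 2.09 to 3.12 FPKM, and Slc34a1, Umod, Aqp2, Cdh5, Kdr and Cd3e had 0 counts at baseline. Undetected members numbered 1 in high glucose against 5 at baseline for leukocyte and 4 against 6 for proximal tubule markers. They numbered 7 against 9 for distal, 6 against 8 for endothelial and 2 in both groups for mesangial markers. In AGEs the same sums were 195 to 261, 21.8 to 43.7 and 26.2 to 33.4 FPKM for parietal, proximal tubule and leukocyte markers. The part of these lists in the results was not tested.

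Against AGEs, 1 of the 590 listed genes was called (0.169%), beside 0.0848% over all genes tested. A count of 1 is too small to be read as a result about the lists. Nid1 was at 1.36, 1.30 and 1.29 FPKM against 0.536, 0.587 and 0.661 FPKM at baseline, with no overlap (log2 fold change 1.17, SE 0.14, edgeR adjusted p = 0.0161). Its adjusted p ranged up to 0.0847 over the alternatives, and it lost its call without control 1, without control 2, without AGEs 1 and without AGEs 2. Of the 20 highest ranked genes with an ordinary symbol the metallothionein Mt2 was called, at 531, 639 and 595 against 1148, 1088 and 1086 FPKM at baseline (-0.89, SE 0.12, edgeR adjusted p = 0.0374). Mt2 lost its call when any 1 library of either group was left out, with the replicate block and with limma (8 of 10 alternatives, adjusted p up to 0.152).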

How the data were processed

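RNA sequencing gave 3 control, 3 high glucose and 3 AGEs libraries of 46284878 to 77242281 counts. Per the file headers, the deposited table gives read counts (whole numbers, not normalized) and FPKM for each gene in each library. Per the labels' protocols RNA was extracted with TRIzol and reverse-transcribed with SuperScript II. Trimming with cutadapt 1.9, checks with FastQC and the build GRCm38 are named in the submitters' processing notes. Which aligner, counting tool, annotation and strand option produced the counts is not given in the sources used here, so overlapping genes and near-identical copies are uncertain. The deposited FPKM of 0.0001 for 0 counts was set to 0. Counts of 4 were more frequent in the control columns than counts of 3 (2976 and 778 entries), so 1 fragment may have added more than 1 count, and floors are then too low. Of 55385 gene identifiers 55144 were found in GENCODE mouse release 21, which gave names of overlapping genes.

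From these columns the mean and SD of control FPKM, ranks and classes were computed (Python 3.11.15). Members and gene lists were chosen with earlier results of these data known. The naming rule took the 20 highest genes with an ordinary symbol, up to 5 genes per list, a fixed set of identity genes, the 10 genes and 3 list members with the highest ratio between libraries, and up to 3 called genes per class and comparison by smallest p. Further list members were named after their values were seen.

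Counts were tested in R 4.3.3 with edgeR 4.0.16 (glmQLFit and glmQLFTest), filterByExpr, TMM factors of 0.935 to 1.10 and 1 fit over all 9 libraries with no covariate (common biological coefficient of variation 0.278). Tests were two-sided, and p-values were adjusted by Benjamini-Hochberg over 17680 genes. Fold changes come from the counts with TMM factors and need not equal ratios of the deposited FPKM. The procedure was tested on simulated data. Alternatives were DESeq2 1.42.0, limma 3.58.1 on log2(FPKM + 1), no filter, a replicate block, other thresholds, a TPM scale and leaving out each library. Promoters of 16747 of 21804 protein-coding genes were matched by symbol in RefSeq (GRCm38.p6). The CpG ratio was the CpG count times the window length over the product of C and G counts. Some genes of the lists are not reported here by name.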

Additional observations from a re-analysis of the deposited data

How the results depend on the processing

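The number of expressed genes was 11116, and 12372 at a threshold of 0.5 FPKM, 9555 at 2 FPKM, 11637 by the mean, 12950 on the TPM scale and 11233 to 11331 when a control library was left out. For the listed genes the count of 364 became 407, 312, 375, 428 and 366 to 370. The expressed count of a list moved by over 1.5 times in 4 of 41 lists at 0.5 FPKM, 5 at 2 FPKM and 6 on the TPM scale, and in none by the mean or without a library. The TPM scale raised levels in all libraries, since the deposited FPKM summed to 342623 to 359425, and moved 256 of 266 named levels by over 1 SD. The median spread was 8.73% with TMM-scaled counts.

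For high glucose 6946 calls became 6427 without a filter, 7594 with DESeq2, 7634 with limma and 5737 to 6133 when a library was left out. Under limma on FPKM 68.6% of calls were higher (5235 higher and 2399 lower), against 49.9% in the edgeR fit. For AGEs 15 calls became 15 without a filter, 325 with DESeq2, 15 with limma and 10 to 21 when a library was left out. The cause of the DESeq2 difference was not tested. No named gene that was called reversed its direction under these alternatives. The mesenchymal genes turned from 4 higher and 7 lower to 7 and 3 with limma, and the median of the podocyte transcription factors from -0.09 to 0.18 without a filter and 0.07 with limma. Same-numbered libraries had deviations correlated at -0.067 to 0.084, so the numbers were not taken to pair them. With the replicate number as a block, 6322 genes were called for high glucose and 5 for AGEs. Nid1 in AGEs lost its call with the block, with limma and without 4 of the 6 libraries. Mt2 in AGEs lost it with the block, with limma and without any of the 6 libraries. At this depth a gene with 0 counts in all 3 control libraries may still lie below 0.0151 CPM.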
